A study of Homo sapiens with 10 samples.

Results

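The nuclear pore complex genes were followed through 3 lists of chromatin immunoprecipitation summits, the single base positions at which a called peak is highest. The set was fixed by name and holds 30 genes of the 20037 protein-coding genes in the RefSeq table used. All 30 were found in that table. A gene was called marked in a list when a summit lay within 1 kb of either of its ends, and such a summit is called a gene-end summit.

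The series profiled HEK293T, a human embryonic kidney cell line. An anti-WDR5 antibody pulled down WDR5 from unmodified cells (WT) and from knockout cells (KO) that lack EMBOW, an endogenous microprotein that binds WDR5. A further line stably expressed EMBOW-FH, its tagged form, and anti-FLAG beads gave the list called EMBOW-F. Each list came from 1 library of MNase-digested nuclei, so differences between genotypes have no replicates behind them and were not tested. The sources used here do not say how the knockout was made or whether the KO cells are 1 clone. The lists held 17660 WT, 21055 KO and 93143 EMBOW-F summits, and read depth is unknown because they carry no counts.

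Nuclear pore complexes sit where the inner and outer nuclear membranes fuse, and carry proteins and RNA between nucleus and cytoplasm. A scaffold of outer and inner rings holds a central channel lined with phenylalanine-glycine repeats, with filaments on the cytoplasmic side, a basket on the nuclear side and membrane proteins as anchors. WDR5 is a subunit shared by the complexes that methylate lysine 4 of histone H3, a mark of active gene starts, and it is found at the promoters of many genes used by all dividing cells.

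The promoter stretches of 7 members are shown because these members stand at the extremes of what follows. NUP98, NUP214 and NUP160 had the WT and KO summits closest together, NUP155 and NUP205 had the highest-ranked WT summits, NUP210 had the pair farthest apart, and AAAS had no gene-end summit. Each is the 150 bases before the gene's start (RefSeq, GRCh38.p14), 5′ to 3′ on the strand of the gene. Capitals mark matches on either strand to the searched motifs described further on.
NUP98, chr11:3797555-3797704, minus strand: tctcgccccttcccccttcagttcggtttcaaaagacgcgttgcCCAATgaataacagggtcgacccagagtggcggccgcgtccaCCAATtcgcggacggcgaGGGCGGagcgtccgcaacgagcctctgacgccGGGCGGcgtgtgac
NUP214, chr9:131125436-131125585, plus strand: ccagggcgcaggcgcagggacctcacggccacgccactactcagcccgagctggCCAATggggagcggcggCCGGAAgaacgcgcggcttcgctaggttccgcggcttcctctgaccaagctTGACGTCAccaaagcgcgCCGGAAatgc
NUP160, chr11:47848545-47848694, minus strand: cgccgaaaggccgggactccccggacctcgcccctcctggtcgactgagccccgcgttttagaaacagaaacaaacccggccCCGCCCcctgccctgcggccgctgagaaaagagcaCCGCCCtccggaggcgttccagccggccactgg
NUP155, chr5:37371107-37371256, minus strand: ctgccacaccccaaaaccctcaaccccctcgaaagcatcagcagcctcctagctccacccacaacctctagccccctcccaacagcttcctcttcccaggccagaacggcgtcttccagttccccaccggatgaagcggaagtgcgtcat
NUP205, chr7:135557767-135557916, plus strand: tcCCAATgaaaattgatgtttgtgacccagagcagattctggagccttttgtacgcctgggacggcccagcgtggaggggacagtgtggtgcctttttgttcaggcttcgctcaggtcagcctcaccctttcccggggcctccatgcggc
NUP210, chr3:13420323-13420472, minus strand: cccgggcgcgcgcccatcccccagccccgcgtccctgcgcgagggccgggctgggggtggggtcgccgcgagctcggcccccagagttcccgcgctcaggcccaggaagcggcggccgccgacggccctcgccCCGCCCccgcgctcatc
AAAS, chr12:53321611-53321760, minus strand: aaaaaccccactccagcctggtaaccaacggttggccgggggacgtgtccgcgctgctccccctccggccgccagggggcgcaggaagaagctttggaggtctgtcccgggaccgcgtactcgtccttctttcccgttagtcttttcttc

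WDR5 was called at nearly all nuclear pore genes in both genotypes. In WT, 27 of the 30 members had a gene-end summit (90.0%, exact Clopper-Pearson 95% interval 73.5 to 97.9%), against 50.0% of all protein-coding genes. In KO the count was also 27 (90.0%, 73.5 to 97.9%), against 53.4% of all genes. Both lists marked 26 members (86.7%, 69.3 to 96.2%), against 46.4% of all genes. GLE1 was marked in KO and not in WT, RAE1 in WT and not in KO, and NUP35 and AAAS in neither (6.67% of members, against 43.1% of all genes). A mark in KO alone was thus found at 3.33% of members and 6.99% of all genes, and a mark in WT alone at 3.33% and 3.51%, so the members did not stand out for single-genotype marks. Intervals cover counting error only. The transport and nuclear envelope genes described below had shares from 85.0 to 91.7%.

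**Figure D1:**
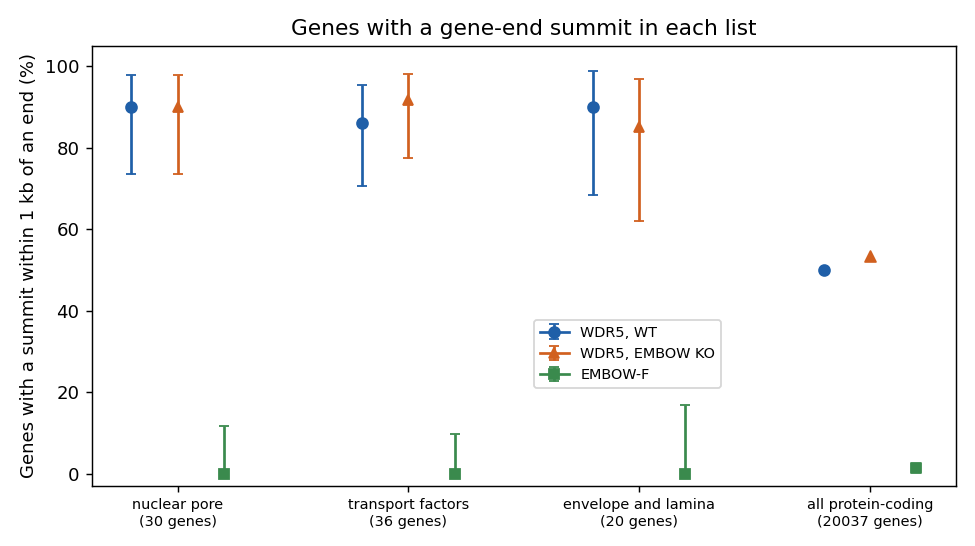
Share of genes (%, vertical axis) with a summit within 1 kb of a gene end, for WDR5 in WT (circles), WDR5 in KO (triangles) and EMBOW-F (squares), in 3 gene lists and in all protein-coding genes. Bars are exact 95% intervals for counting error. The nuclear pore genes stand at 90.0% in both WDR5 lists and at 0% in the EMBOW-F list.

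Members marked in both lists had their WT and KO summits close together. The closest WT to KO pair lay within 500 bp at 25 members (83.3% of the 30, against 44.2% of all genes) and within 100 bp at 20 (66.7%, against 30.2%). Counted only over genes marked in both lists, the members were close to other genes. There, 96.2% of the 26 members and 95.1% of the 9307 genes overall had a pair within 500 bp. For 100 bp these shares were 76.9% and 65.1%, and the median closest distance was 44 bp in the members and 55 bp in all such genes. At 7 members the pair lay within 10 bp, and NUP153 at 372 bp and NUP210 at 529 bp were farthest apart.

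**Figure D2:**
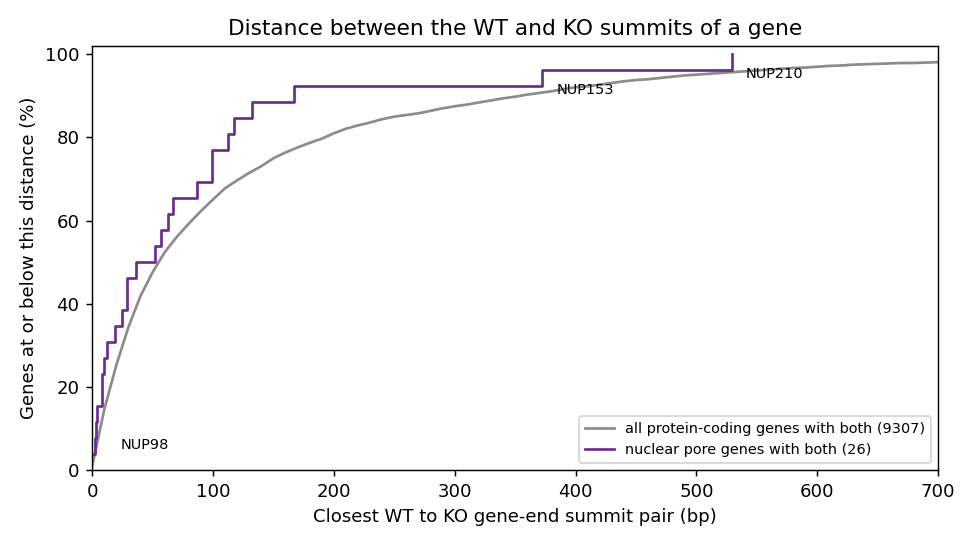
Cumulative share of genes (%, vertical axis) by the distance between their closest WT and KO gene-end summits (bp, horizontal axis, shown to 700 bp), for the 26 nuclear pore genes marked in both lists (stepped line) and the 9307 protein-coding genes marked in both (grey). The members run from 1 bp at NUP98 to 529 bp at NUP210.

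The 8 outer ring genes encode subunits of the Y complex, the scaffold that also returns to chromatin as pores are rebuilt after mitosis. All 8 were marked in both genotypes, with closest pairs from 3 to 167 bp apart and a median of 24 bp. At NUP160 the WT summit lay 361 bp inside the gene and the KO summit 358 bp inside it. The WT summit scored a −log10 q of 4.23 (rank 12285) and the KO summit 11.9 (rank 5282). Scores and ranks were given by the authors' peak caller within each list, the lists differ in length, and neither measures a change between genotypes. NUP107 had its WT summit 138 bp and its KO summit 146 bp inside the 5′ end, at ranks 5660 and 4305. At NUP107 a further pair lay 602 bp (WT) and 520 bp (KO) beyond the 3′ end, where SLC35E3 starts 367 bp away.

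SEH1L, which also serves in the GATOR2 complex that feeds amino acid signals to mTORC1, had the highest-ranked WT summit of the outer ring. It lay 573 bp inside the gene at rank 1054 (−log10 q 23.2), and the KO summit 8 bp away ranked 3633 (15.1). NUP43 had the highest-ranked KO summit of the ring, at rank 1371 (24.1). That summit lay 703 bp outside the gene, and the WT summit nearest to it lay 640 bp outside at rank 5498 (9.95). PCMT1, a protein repair methyltransferase, has its 5′ end 337 bp from NUP43, and all 3 NUP43 summits lay within 1 kb of it as well. NUP43 and GLE1 have no entry in the promoter table, so their strand was not used.

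SEC13, which also builds the COPII vesicle coat, had summits 145 bp (WT, −log10 q 4.25) and 202 bp (KO, 13.6) inside the gene. NUP133 had them at 170 bp (WT, 2.78) and 206 bp (KO, 5.11), and its WT summit was, at rank 15393, the lowest among the members' highest-ranked WT summits. NUP37 showed the reverse order of scores, with 11.5 for the WT summit 177 bp inside the gene and 2.84 for the KO summit 165 bp inside. NUP37 had a further KO summit 820 bp outside the gene, with 2.86. NUP85 was the outer ring gene with the widest pair. Its WT summits lay 620 and 95 bp outside the gene and its KO summits 787 bp outside and 203 bp inside it, so the closest pair was 167 bp apart. The WT summit 95 bp before the start is 1 of 4 member summits that fall inside a RefSeq promoter window. The base under it is the capital letter in the following stretch of chromosome 17.
NUP85, chr17:75205570-75205598, plus strand: gacgcgtgcagaggAccgcagaggggtgg

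Of the 5 inner ring genes, 4 were marked in both genotypes, with closest pairs from 19 to 99 bp apart. NUP155, a scaffold protein that contacts the pore membrane, carried the highest-ranked summit of all members in each list. In WT it lay 437 bp outside the gene at rank 278 (−log10 q 44.5), and in KO 524 bp outside at rank 205 (64.8). NUP205, a large scaffold protein related to NUP188, followed in WT. Its WT summit lay 335 bp inside the gene at rank 406 (35.2), and its KO summit 236 bp inside at rank 1632 (22.3). NUP188 had its higher-ranked WT summit 249 bp inside the gene (rank 4130) and its KO summit 268 bp inside (rank 7629). A weaker WT summit of NUP188 lay 362 bp outside, scoring 2.05, and 630 bp separated it from the nearest KO summit. NUP93, which ties the inner ring to the channel, had a pair on either side of its start. The outer summits lay 359 bp (WT) and 292 bp (KO) outside the gene, and the inner ones 300 bp (WT) and 168 bp (KO) inside.

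NUP35, the smallest inner ring protein, had no gene-end summit, yet WDR5 was called at its listed start. The RefSeq gene begins at chr2:183117514, and the start in the promoter table lies at 183124443, 6929 bp inside it. A WT summit lay 275 bp (rank 3550) and a KO summit 300 bp (rank 3101) from that start, 25 bp from each other. A weaker pair followed at 183126127 in WT and 183126263 in KO. Counting listed promoter starts along with gene ends, a choice made after seeing these values, 28 members were marked in WT and 28 in KO, against 53.6% and 57.2% of all genes.

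All 4 central channel genes were marked in both genotypes, with closest pairs from 1 to 132 bp apart. NUP98, whose precursor is cleaved into a repeat protein and the scaffold protein NUP96, had its WT summit 183 bp and its KO summit 184 bp inside the gene, on neighbouring bases. The scores were 5.62 (rank 10129) in WT and 16.8 (rank 2962) in KO. A further NUP98 summit lay 604 bp outside the gene in WT and 803 bp outside in KO, and all 4 also lay within 1 kb of the 5′ end of PGAP2, which starts 166 bp from NUP98.

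NUP62, NUP58 and NUP54 form the trimer of the channel. NUP62 had 1 gene-end summit in each list, 190 bp (WT, rank 1547) and 161 bp (KO, rank 695) inside the gene. The same summits lay within 1 kb of the 5′ ends of ATF5 and IL4I1, which overlap NUP62. NUP58 had its higher-ranked summits outside the gene, 644 bp in WT (rank 1359) and 669 bp in KO (rank 888). Weaker NUP58 summits lay 159 bp (WT) and 222 bp (KO) inside. NUP54 had summits 166 bp inside and 330 bp outside the gene in WT, and 298 bp inside in KO.

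The cytoplasmic face held the unevenly marked members: 5 of its 7 genes were marked in WT, 5 in KO and 4 in both. RANBP2, a filament protein with SUMO ligase activity, had its WT summit 221 bp inside the gene at rank 963 (−log10 q 24.0) and its higher-ranked KO summit 333 bp inside at rank 4120 (14.0). A second KO summit of RANBP2 lay 922 bp outside. RANBP2 has near-identical partial copies on chromosome 2, and POM121 has them on chromosome 7, and the sources used here do not say how reads that fit several copies were placed. NUP214 had summits 182 bp (WT, rank 2192) and 180 bp (KO, rank 1955) inside the gene. NUP88, its partner in the filaments, had WT summits 492 bp inside and 705 bp outside the gene, and KO summits 999 and 150 bp inside and 653 bp outside. The summits outside lay 52 bp apart between genotypes and within 1 kb of RPAIN, which starts 520 bp from NUP88. The KO summit at 999 bp is the member summit nearest to the limit of the window from inside, and the nearest one beyond it was a KO summit 1215 bp inside NUP85.

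NUP42, GLE1 and RAE1 act in the release of messenger RNA at the cytoplasmic side. NUP42 had summits 142 bp (WT, −log10 q 8.67) and 146 bp (KO, 11.7) inside the gene, with another WT summit 691 bp inside and another KO summit 740 bp outside. GLE1 (chr9:128504692-128542288) had 1 KO summit, 176 bp inside the gene, with a −log10 q of 3.51 at rank 16034. The nearest WT summit to it lay 47148 bp away. RAE1 (chr20:57351255-57379202) had 1 WT summit, 175 bp inside the gene, with a −log10 q of 9.66 at rank 5675. The nearest KO summit to it lay 39246 bp away. Both single-genotype calls are thus a called summit against no summit over a long stretch of the other list, and neither has a replicate. With a q of 1e-05 or less the GLE1 summit was lost and the RAE1 summit stayed. The RAE1 summit lay 112 bp before the start listed in the promoter table, and the base under it is the capital letter here.
RAE1, chr20:57351416-57351444, plus strand: cccccaggtaggccCcgtgccgcgcgcgt

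AAAS, which encodes the pore protein ALADIN that is mutated in Allgrove syndrome, had no summit within 1 kb of either end (chr12:53307460-53321610). The nearest summits lay 3520 bp (WT, rank 9943) and 3795 bp (KO, rank 8004) before its 5′ end. They lay 275 bp from each other. Its promoter stretch above held none of the searched motifs.

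The 3 nuclear basket genes were marked in both genotypes. NUP153, which anchors the basket, had its WT summit 355 bp (rank 1747) and its KO summit 727 bp (rank 3030) inside the gene, 372 bp apart. NUP50, a basket protein that helps importin cargo to be released, had a pair on either side of its start. The outer summits lay 286 bp (WT) and 385 bp (KO) outside the gene and the inner ones 548 bp (WT) and 658 bp (KO) inside. The inner pair fell in the window of a further listed NUP50 start at chr22:45164671, 198 bp before it in WT and 88 bp before it in KO. The bases under them are in capitals here.
NUP50 WT, chr22:45164459-45164487, plus strand: gggggacgggccccTggggaggggtgcgg
NUP50 KO, chr22:45164569-45164597, plus strand: gggactctagggagGgagcctgggtcggg
TPR, the coiled-coil protein of the basket fibres, had a −log10 q of 6.93 in WT (319 bp inside the gene) and 5.22 in KO (290 bp inside). The WT score was above the median of its list (6.53) and the KO score below its own (6.28).

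The 3 transmembrane genes were also marked in both. NDC1 had summits 131 bp (WT, rank 7940) and 121 bp (KO, rank 3174) inside the gene. POM121 had them 200 bp (WT, rank 4267) and 317 bp (KO, rank 9318) inside, and a further pair at its second listed start, chr7:72925095, 97 bp (WT, rank 3690) and 123 bp (KO, rank 4789) from it. NUP210, the large membrane glycoprotein of the pore, was the only member marked in both lists whose summits lay more than 500 bp apart. The WT summit lay 674 bp inside the gene at rank 4704 (−log10 q 11.0) and the KO summit 145 bp inside at rank 518 (36.8). The WT list had no second summit at NUP210 and the KO list none at the WT position.

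**Figure D3:**
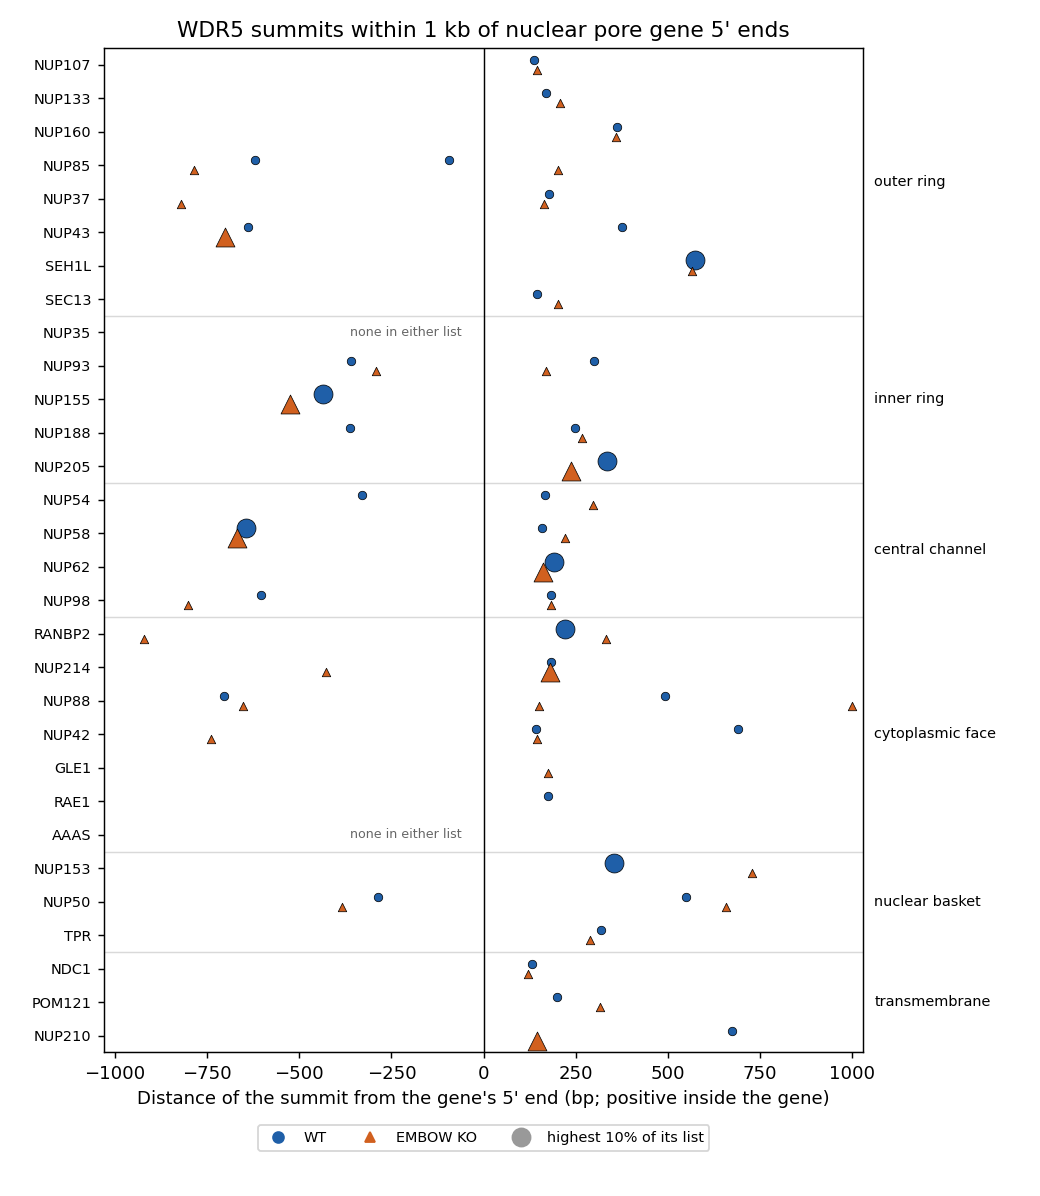
Position of each WDR5 gene-end summit relative to the 5′ end of its gene (bp, horizontal axis, positive inside the gene) for the 30 nuclear pore genes, grouped by place in the pore. Circles are WT and triangles KO, and large symbols rank in the highest 10% of their list. For NUP43 and GLE1, whose strand was not used, the distance is to the nearer gene end, and the 3′ summits of NUP107 are left out. Most members have a WT and a KO summit between 100 and 400 bp inside the gene, and GLE1 and RAE1 have a summit in 1 list.

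Most of the members' summits lay just inside the 5′ end. Of the 38 WT gene-end summits 35 lay at a 5′ end, 1 at a 3′ end and 2 at genes of unused strand, and of the 39 KO summits the numbers were 36, 1 and 2. The highest-ranked 5′ summit lay a median of 180 bp inside the gene in WT (26 genes) and 184 bp in KO (25 genes). For all protein-coding genes with a known strand the median was 191 bp in each list, so the members lay where WDR5 summits of other genes did. It lay between 100 and 400 bp inside the gene at 17 members in WT and 19 in KO. It lay outside the gene at 6 members in WT (NUP88, NUP58, NUP155, NUP93, NUP50 and NUP85) and 4 in KO (NUP37, NUP58, NUP155 and NUP50).

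Some members had more than 1 summit in a list. In WT 11 members had 2 or more gene-end summits (36.7%, 19.9 to 56.1%), against 12.7% of all genes, and in KO also 11, against 14.5%. Counted only over marked genes the gap was smaller, at 40.7% of the 27 members (22.4 to 61.2%) in each list against 25.4% of marked genes in WT and 27.2% in KO. Both of these background shares lie inside the members' interval. The transport genes described below stood at 38.7% in WT and 42.4% in KO, and the envelope genes at 38.9% and 35.3%, so this was not particular to the pore. At NUP107 the 2 summits stood at opposite ends of the gene. At the others, neighbouring summits of 1 list lay a median of 723 bp apart in WT (range 496 to 1197 bp) and 891 bp in KO (460 to 1255 bp). At NUP58, NUP93, NUP50 and NUP98 the 2 summits stood on either side of the start in both genotypes, as they did at NUP88, which had 3 in KO. At 8 of the 28 members marked in either list a summit also lay within 1 kb of an end of another protein-coding gene, in each case its 5′ end. These were NUP107, NUP37, NUP43, NUP188, NUP62, NUP98, NUP88 and TPR. That share is 28.6% (13.2 to 48.7%), close to the 29.8% of all marked genes with either end of another gene counted. A shared summit cannot be assigned to either gene. At NUP107 only the 3′ pair was shared, and at NUP88 the WT summit 492 bp inside and the KO summit 999 bp inside were not. NUP62 and IL4I1 have their listed 5′ ends at the same base, NUP37 and PARPBP start 69 bp apart, and NUP188 and DOLK 96 bp apart.

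The members' summits were spread over the range of scores. The highest-ranked gene-end summit stood at a median of the top 27.8% of the WT list and the top 20.4% of the KO list, against 33.7% and 30.2% for all marked genes. In the highest 10% stood 7 of 27 members in WT (25.9%, against 16.0% of all marked genes) and 7 of 27 in KO (25.9%, against 17.8%). Of the marked transport genes described below 25.8% stood there in WT and 27.3% in KO, and of the envelope genes 33.3% and 41.2%. High ranks were thus not particular to the pore genes, and no interval was computed for these shares. NUP155, NUP205, NUP58 and NUP62 were in the highest 10% of both lists. SEH1L, RANBP2 and NUP153 were there in WT, and NUP43, NUP214 and NUP210 in KO.

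**Figure D4:**
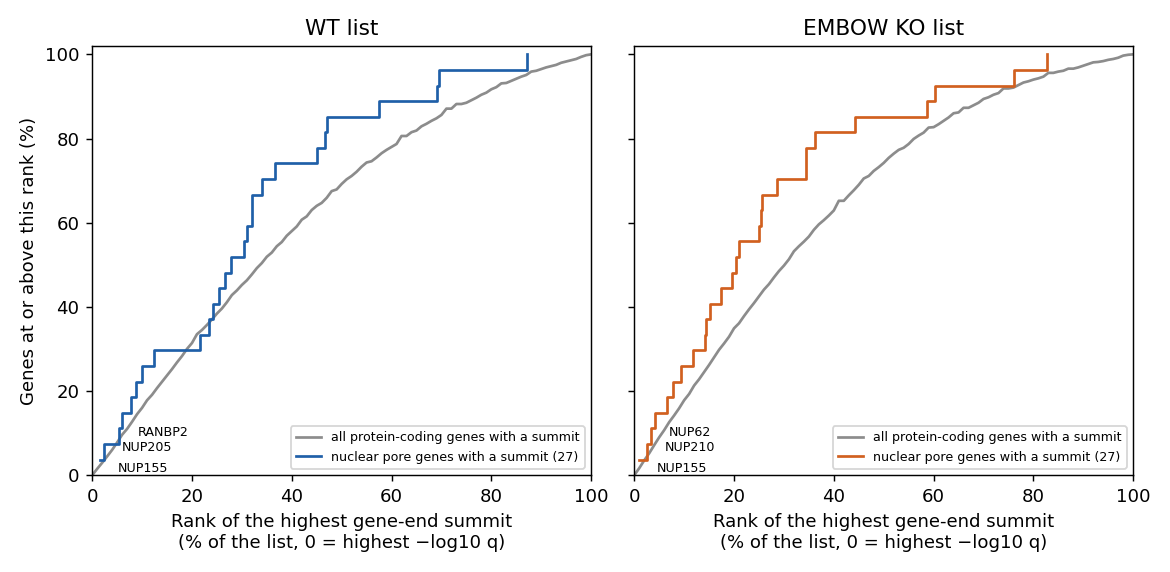
Cumulative share of genes (%, vertical axis) by the rank of their highest gene-end summit (% of the list, horizontal axis, 0 is the highest −log10 q), in the WT list (left) and the KO list (right). Stepped lines are the 27 marked nuclear pore genes and grey lines all marked protein-coding genes. NUP155 stands highest of the members in both panels, at 1.57% in WT and 0.974% in KO.

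Beyond gene ends, the KO list held more summits in and around the members than the WT list. Inside the genes or up to 8 kb beside them, and leaving out RANBP2, whose RefSeq span of chr2:108719482-109842301 takes in other genes, there were 25 such summits in KO and 14 in WT. Of these, 9 in each list had a partner within 500 bp, leaving 16 in KO (64.0%, exact 95% interval 42.5 to 82.0%) and 5 in WT (35.7%, 12.8 to 64.9%) without one. At all protein-coding genes, with no gene left out and a summit counted once for each gene it lay in or beside, 48.8% of 12914 KO counts had no partner. In WT it was 34.6% of 10116 counts. Both of these shares lie inside the members' intervals, which leave out RANBP2. The intervals treat summits as independent. The 25 KO summits came from 14 genes and the 14 WT summits from 7, so the intervals may be too narrow. With RANBP2 kept, 19 of 34 KO and 6 of 21 WT member summits had no partner. NUP155 had 5 of the 25 KO summits and no WT one, at −log10 q from 2.56 to 7.85. NUP43 had the reverse, with 4 in WT and 2 in KO. The KO list is longer as a whole, and the part of its length in these numbers was not tested.

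No member had an EMBOW-F gene-end summit (0 of 30, exact 95% interval 0 to 11.6%), and 1.40% of all genes had one, so a count of 0 is near the background. The EMBOW-F summit nearest to a member's end lay 21.8 kb away, at TPR. The median distance was 1850 kb in the members and 1550 kb in all protein-coding genes. GLE1 and RAE1, the members marked in a single genotype, lay 5778470 and 1259363 bp from an EMBOW-F summit.

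The authors' deposited list of new WDR5 targets dependent on EMBOW had a transcript end within 1 kb of 3 members (10.0%, 2.11 to 26.5%), against 12.1% of all genes. That list was chosen by the authors on these samples and is no independent evidence. At GLE1 it held 13 transcripts, all on the plus strand, the closest starting 5 bp from the gene's lower end, beside the KO-only summit. At NUP62 it held 25 minus-strand transcripts, 15 of them spanning the gene, although NUP62 had summits 29 bp apart in both genotypes. At NUP37 its 7 transcripts were on the plus strand and started 69 to 269 bp from the end of NUP37 that faces PARPBP. With strand taken into account, a listed transcript started within 1 kb of the 5′ end at 1 of the 28 members of known strand, NUP62 (3.57%, against 8.02% of all such genes). GLE1 was not among the 28, because its strand was not used, so its listed transcripts do not count there.

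The other genes of nuclear transport gave shares like those of the pore. Of 36 transport factors and pore-associated genes (importins, exportins, the RAN cycle and a few pore genes), 31 were marked in WT (86.1%, 70.5 to 95.3%) and 33 in KO (91.7%, 77.5 to 98.2%). IPO9, an importin of histones, held the highest-ranked summit in both lists (ranks 190 and 184), followed by KPNA2 (392 and 306), an importin alpha. CSE1L, which returns importin alpha to the cytoplasm, came next in WT (719) and KPNA3 in KO (418). IPO13 and NUP210L carried a mark in KO alone, no gene in WT alone, and KPNA7, TNPO3 and IPO5 in neither list. The NUP210L summit was a weak one at the 3′ end, with a −log10 q of 1.87 at rank 20231. The WT summit nearest to an end of NUP210L lay 1603 bp away, beyond the window. For TNPO3 the nearest summits lay 1399 bp (WT) and 1567 bp (KO) from a gene end, beyond the window.

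Of 20 nuclear envelope and lamina genes, 18 were marked in WT (90.0%, 68.3 to 98.8%) and 17 in KO (85.0%, 62.1 to 96.8%). LBR, the lamin B receptor, held the highest-ranked summit in both lists (ranks 535 and 521). It was followed by NEMP1 (589) and TMPO (699) in WT and by TMEM201 (823) and NEMP1 (1466) in KO. LMNB1, which encodes lamin B1, and SYNE3 carried a mark in WT alone, and the KO summit nearest to LMNB1 lay just beyond the window, at 1438 bp. SYNE1 carried a mark in KO alone, and SYNE2 in neither list.

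The members' promoters had a somewhat higher median count of CpG dinucleotides than all promoters, a property the choice of genes did not use. A 300-base window (250 bases before to 50 after the start) was listed for 28 of the 30 members and for 15842 protein-coding genes. The members' windows held 16 to 48 CpG, with a median of 26.5, against a median of 22 in all windows. Their GC content ranged from 52.3 to 81.3% with a median of 63.5%, against 62.7% overall. Among genes with 15 or more CpG in the window, a limit chosen after seeing the data, 71.5% were marked in WT and 75.8% in KO. Below it these shares were 15.5% and 17.1%. The limit lies just below the members' lowest count of 16, so all 28 members fell in the CpG-rich class by that choice. That class holds 10344 of the 15842 windows, so most genes are in it. In it, 26 members were marked in WT and 25 in KO. The part of CpG content in the members' share was not tested.

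Motif matches were counted on both strands of these windows. CCGGAA, the core of ETS factor sites, was found in 13 of 28 member windows (46.4%) and in 22.7% of all windows. The NRF1 palindrome of 10 bases was found in 3 (10.7%, against 1.77%), at NUP107, NUP62 and NUP50. The cyclic AMP response element TGACGTCA was found in 3 (10.7%, against 2.56%), at NUP133, NUP214 and NUP42. AAGATGGC, a YY1 motif, was found in 3 (10.7%, against 3.86%), at NUP188, NUP205 and NUP88. CCAAT was found in 11 (39.3%, against 36.4%), the GC box GGGCGG in 12 (42.9%, against 58.3%), the E-box CACGTG in 2 (7.14%, against 8.82%) and ACTACAA of ZNF143 sites in 1 (3.57%, against 3.13%). TATAAA was in no member window, against 9.75% of all. These are letter matches in the sequence, and no overlap between the 9 motifs was removed. All 28 member windows held 16 or more CpG, while 5498 of the 15842 windows held fewer than 15. The ETS, NRF1, cyclic AMP, GC box and E-box motifs contain CpG, so for them the windows compared are unlike. No interval was computed for the motif shares, and the part of CpG content in them was not tested. NUP214 held ETS, CCAAT and cyclic AMP matches together in the stretch printed above, and NUP155 and AAAS held no match in theirs.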

How the data were processed

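The deposited files are 3 summit lists and 1 transcript list. The submitters' processing notes name the build hg38 and the tools MACS2 2.2.7.1, Bowtie2 2.4.5 and deepTools 3.5.1, with no role, setting or control. Each deposited list gives 1-bp intervals with the authors' score, read as −log10 q because its lowest value was just over 1.30, which a q of 0.05 gives. Ranks were set within a list by −log10 q, and tied scores share a rank. The list named for tagged EMBOW was matched to the FLAG precipitation, the only ChIP of tagged EMBOW in the labels. The transcript list (18665 transcripts) is the authors' choice by a rule the sources used here do not give, and 1 damaged chromosome name was repaired. H3K4me3 and input libraries were not analysed here.

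Gene ends came from the RefSeq gene table (GRCh38.p14), and strand and promoter windows from the RefSeq promoter table. Summits up to 500 bp apart counted as a pair, as if widened by 250 bp on either side. Shares have exact Clopper-Pearson 95% intervals, and no p-values were computed. The counting was tested on simulated data (2000 genes with planted summits), and 0 counts differed. The opposite-strand promoter windows that overlap matched as reverse complements in 710 of 710 cases. All 30 members are named, and of the other lists the genes marked in a single genotype or in neither and the 3 highest-ranked. The members and lists were chosen with earlier results of these data known. The scripts ran in Python 3.11.15 with pandas 2.3.3, numpy 2.4.6, matplotlib 3.10.9 and scipy 1.17.1.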

Additional observations from a re-analysis of the deposited data

How the results depend on the processing

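The counts were recomputed with windows of 500 bp, 2 kb and 5 kb, with a q of 1e-05 or less, with WDR5 lists of equal length, with 5′ ends only (28 members of known strand), with listed promoter starts added, and with other partner and transcript distances. Of 73 such values 67 were within 1.5 times the reported count. The other 6 were small counts. With the 500 bp window, 2 members carried a mark in KO alone (GLE1 and NUP210) and 4 in WT alone (NUP153, NUP155, NUP43 and RAE1). The shares of all genes were 9.05% and 5.81% there. At NUP153, NUP155 and NUP43 the KO summit lay 727, 524 and 703 bp from the gene end, beyond that window. At NUP210 the WT summit did, at 674 bp. With a q of 1e-05 or less, 3 members were marked in KO alone (NUP133, NUP160 and SEC13) and 2 in WT alone (NUP37 and RAE1). The shares of all genes were 9.55% and 4.78% with that limit. With 5′ ends only, 0 members carried a mark in KO alone, because GLE1 has no strand in the table. The share of all genes of known strand was 6.93% there. With transcript ends up to 5 kb away, 5 members were near the authors' list. The share of all genes at that distance was not computed, so no conclusion is drawn from that count. RAE1 carried a mark in WT alone in 7 of 7 of the settings that change windows, q, list length or starts. This outcome was fixed beforehand and adds no support. The nearest KO summit lay 11474 bp from an end of RAE1, beyond every window, and its WT score of 9.66 passed the q limit. No paired analysis was possible because each group has 1 library. Depth is unknown, so a missing summit does not show missing WDR5.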
